A study of Mus musculus with 18 samples.

Results

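Hopx-high CD4+ T cells were compared with naive CD4+ T cells by total RNA sequencing, in 3 libraries of each, across all genes. These are 6 of the 18 libraries in the series, chosen by their group labels alone and not by any measured value. Of 23219 features in the total RNA table, 11320 were covered well enough to test and 8904 had no coverage in any of the 9 total RNA libraries. The study asked how T cells that had met their antigen on dendritic cells, and carried different levels of Hopx, differed in RNA from naive T cells. The Hopx-high group was made up of antigen-specific T cells activated by dendritic cells in which Hopx was high. Hopx-low cells, 3 libraries that entered the same fit, were the activated cells with a low level. Naive cells were the unactivated group. In all groups the CD4+ T cells came from lymph nodes and spleen of C57BL6 mice kept free of specific pathogens. The labels attach the same treatment to every group, naive included: chimeric antibodies that bring antigen to dendritic cells, given into the peritoneum 5 days before the cells were collected. They do not give the age of the mice, how the level of Hopx was read, or whether libraries came from separate mice, so a p-value here sets a difference against the scatter of these libraries only. In every group replicate 3 had coverage of Xist, the RNA of the inactive X chromosome, and none of the Y-linked gene Ddx3y, and replicates 1 and 2 had the reverse, so each group held libraries of both sexes in the same numbers. Both genes were picked after their values were seen.

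Naive CD4+ T cells rest outside the cell cycle, recirculate through lymphoid organs and depend on interleukin 7 and on transcription factors that hold them quiescent. After antigen contact they divide, change their homing receptors and take on effector, follicular helper, regulatory or unresponsive fates, and dendritic cells that present antigen without inflammation favour the last of these. Hopx is a small homeodomain protein that does not bind DNA itself and acts through partner proteins.

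Levels are bases of aligned sequence over a feature per megabase covered in that library. Changes are differences of group means of log2(level + 1), Hopx-high minus naive unless stated, with their standard error from limma, and a feature was called when its adjusted p, by the Benjamini-Hochberg method over all 11320 tested features, was below 0.05. The pseudocount of 1 understates changes of low genes, and levels are not corrected for length, so they are compared between groups and not between genes. The 6 libraries held 109.7 to 304.7 megabases, and a level of 1 stood for about 0.975 to 2.80 reads, so small levels are based on a handful of reads. Read lengths are not in the deposited values. The length of a read was estimated as the median of a library's small values, 107 to 112.5 bases in these 6 libraries. Hopx-high replicate 3 was the shallowest of them, and Lars2, a mitochondrial tRNA synthetase gene, took 18.9% of its bases, against 6.55% and 5.93% in the other Hopx-high libraries and 0.525% to 5.27% in the naive ones. Lars2 was picked after its values were seen. Hopx itself followed the labels. Its levels were 34.2, 26.1 and 23.1 in Hopx-high, 5.90, 7.49 and 7.59 in Hopx-low and 1.76, 0 and 1.152 in naive libraries, with no overlap between any of the groups.

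Hopx-high cells differed from naive cells in 2666 features, 23.6% of those tested. Of these, 952 were higher (8.41%) and 1714 lower (15.1%). The libraries of the 2 groups did not overlap in 936 of the higher and 1570 of the lower features, so lack of overlap in a called gene adds little to its call. The rises were larger: 396 of the higher features changed by at least 2 on the log2 scale and 90 by at least 4, against 126 and 6 of the lower ones. The median change of all tested features was -0.29 and not 0, and the balance of rises and falls moved with how the libraries were scaled. After scaling to a common upper quartile the median was -0.09, and 1381 features were called higher (12.2%) and 1183 lower (10.5%). It was -0.11 with quantile normalization, which called 1337 higher and 1306 lower, and -0.18 with Lars2 left out of the totals. Of the 952 higher features 951 were also higher with upper-quartile scaling, as 1183 of the 1714 lower ones were also lower, and 0 were called in the other direction in any of the 3 scalings. Without Hopx-high replicate 3 the counts were 827 higher and 897 lower, and without naive replicate 1 they were 749 and 1009. With only replicates 1 and 2 of each group, the libraries without Xist, more features were higher, 623, than lower, 483. By the RefSeq annotation 915 of the higher and 1604 of the lower features were protein-coding genes, and 15 and 53 were long noncoding RNAs.

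**Figure D1:**
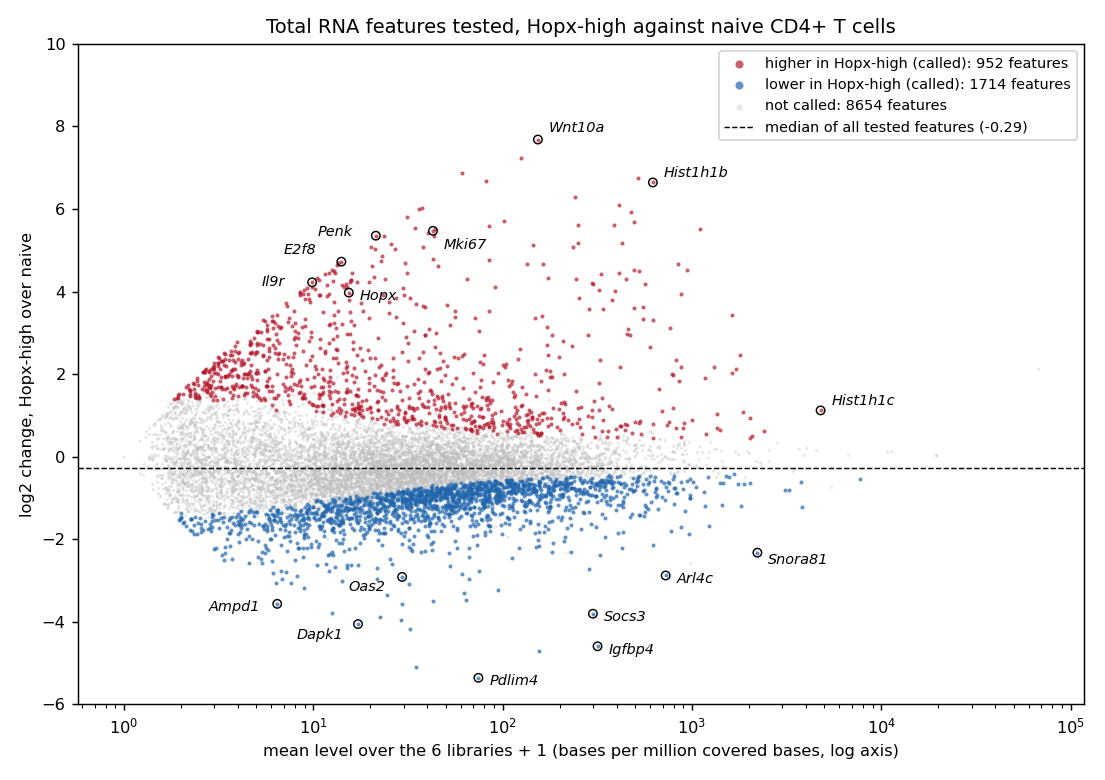
Change of each tested feature (log2, Hopx-high over naive) against its mean level over the 6 libraries plus 1 (log axis), with 952 called higher in red, 1714 called lower in blue and the rest grey. The dashed line is the median of -0.29. The changes run from -5.36 (Pdlim4) to 7.68 (Wnt10a), and the histone gene Hist1h1c and the small nucleolar RNA Snora81 are among the changed features of high level.

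Cell division genes made up the broadest group of rises. Of 240 tested genes in 5 division lists (DNA replication, mitosis, G1 control, replication-dependent histones and replacement histones), 167 were higher in Hopx-high cells and 3 were lower, against 8.41% and 15.1% of all tested features. Among replication-dependent histone genes, which are made in S phase to package new DNA, 63 of 64 were higher with a median change of 3.62. The median was 4.31 for H3, 4.16 for H2A, 3.65 for H2B, 3.42 for the linker histones H1 and 2.17 for H4. The large Hist1 cluster spans chr13:21715711-23934156 (GRCm38.p6, the mm10 build), and 50 of its 50 tested genes were higher.

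The summed level of the replication-dependent histone genes was 73352, 66025 and 58535 in Hopx-high, 24296, 21196 and 26595 in Hopx-low and 7983, 11696 and 12091 in naive libraries. That is 5.85% to 7.34% of all bases in Hopx-high libraries, 2.12% to 2.66% in Hopx-low and 0.798% to 1.21% in naive ones, so the 3 groups were apart. The genes resemble each other closely, and how reads that match several of them were handled is not given in the sources used here. Single genes are less certain than these sums. Hist1h2bm, an H2B gene, stood at 1011, 942 and 869 in Hopx-high, 206, 198 and 237 in Hopx-low and 15.02, 15.4 and 12.8 in naive libraries (log2 change 5.93 ± 0.18, limma adjusted p = 5.6e-16). Hist1h1d, a linker histone gene, stood at 3779, 2813 and 2334 in Hopx-high, against 219.9, 308 and 294 in naive libraries (log2 change 3.42 ± 0.21, limma adjusted p = 2.2e-11). Hist1h1c had the largest rise in level of all called features but a small change on the log2 scale: 6968, 6744 and 5723 in Hopx-high and 2028, 3640.2 and 3557 in naive libraries (log2 change 1.12 ± 0.18, limma adjusted p = 0.0001). In each of these 3 genes every Hopx-high library lay above every naive library. Of 9 tested replacement histone genes, which are made outside S phase too, 4 were higher and 0 lower. H2afx, the variant marked at DNA breaks, stood at 806, 824 and 844 in Hopx-high, 284, 259 and 290.3 in Hopx-low and 88.6, 94.9 and 144 in naive libraries (log2 change 2.94 ± 0.18, limma adjusted p = 3.4e-11).

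The DNA around many histone gene starts carries known control letters. The octamer ATTTGCAT, read on either strand, is known from H2B promoters as the site of Oct-1. In RefSeq promoter windows (GRCm38.p6, 250 bases before to 50 after a transcription start) it occurred in 43.8% of 16 H2B windows and 37.5% of 16 H2A windows, against 1.3% of 11370 windows of tested features. The letters CCAAT, in either strand, occurred in 84.7% of 59 replication-dependent histone windows, against 38.4%. All 59 windows were of higher genes, so these shares could not be set against histone genes not called. Most H2B windows held no octamer. The octamers of the 4 H2B genes with the smallest adjusted p among those that hold one are shown on the gene's own strand with the octamer in capitals.
Hist1h2bm, chr13:21722009-21722036, plus strand: tctcgtctctATTTGCATaacagcgtgt
Hist1h2bb, chr13:23746634-23746661, plus strand: tgagtctcttATTTGCATaaagcctttg
Hist1h2bk, chr13:22035781-22035808, plus strand: atttcactttATTTGCATacgaagttct
Hist1h2bg, chr13:23571331-23571358, plus strand: tgagtcccttATTTGCATagaacctcta
A match to a motif is a match of letters only, and binding was not measured.

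Mitosis genes rose nearly as widely as the histones. Of 77 tested, 58 were higher and 0 lower, with a median change of 2.56 against -0.29 over all tested features. Their summed level was 1898, 2704 and 2079.9 in Hopx-high, 886, 1058 and 1008 in Hopx-low and 450.2, 489 and 448 in naive libraries, with no overlap. Mki67, the gene of the proliferation marker Ki-67, had levels of 38.8, 129 and 80.5 in Hopx-high, 8.84, 22.01 and 19.9 in Hopx-low and 1.01, 1.41 and 0 in naive libraries (log2 change 5.47 ± 0.46, limma adjusted p = 5.9e-09). The lowest Hopx-high library still lay above every Hopx-low library, and those above every naive one. Espl1, the protease separase that parts sister chromatids, stood at 70.1, 93.3 and 90.6 in Hopx-high and 0.406, 2.13 and 0.443 in naive libraries (log2 change 5.52 ± 0.36, limma adjusted p = 5.9e-11). The kinase gene Aurkb (5.09 ± 0.40), the cyclin gene Ccnb2 (5.02 ± 0.40), the kinesin gene Kif18b (5.34 ± 0.39) and the condensin gene Ncapd2 (2.45 ± 0.19) also rose. Aurkb, Ccnb2 and Kif18b were nearly silent in naive libraries, the highest level being 1.001 for Ccnb2 in replicate 3, whereas Ncapd2 stood at 53.7, 59.6 and 45.1 there and at 285, 333 and 262 in Hopx-high libraries.

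DNA replication genes were higher in 31 of 59 cases and lower in 0, with a median change of 1.02. With upper-quartile scaling 41 were higher. Mcm5, a subunit of the helicase that opens DNA for copying, stood at 566, 549 and 507 in Hopx-high, 332, 366 and 297 in Hopx-low and 84.4, 102 and 136 in naive libraries (log2 change 2.35 ± 0.18, limma adjusted p = 1.9e-09). Uhrf1, which brings the DNA methyltransferase to newly copied DNA, stood at 111, 139.5 and 115 in Hopx-high and 5.44, 4.37 and 5.80 in naive libraries (log2 change 4.30 ± 0.26, limma adjusted p = 2.3e-11). The thymidine kinase gene Tk1 (5.03 ± 0.45), the chromatin assembly factor gene Chaf1a (3.78 ± 0.44) and the ligase gene Lig1 (2.33 ± 0.27) rose as well. Hopx-high and naive libraries did not overlap in any of these 5 genes.

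Genes of the G1 phase changed in both directions. Of 32 tested, 12 were higher (37.5%) and 3 lower (9.38%), against 8.41% and 15.1% of all tested features. The median change of these genes was 0.23. Their summed level overlapped between the groups, at 1794 to 2264 in Hopx-high and 1809 to 2103 in naive libraries. E2F factors, which switch on genes of DNA synthesis, were among the rises: E2f1 stood at 44.2, 49.6 and 53.9 in Hopx-high and 9.61, 5.80 and 8.05 in naive libraries (log2 change 2.53 ± 0.30, limma adjusted p = 9.7e-07). E2f8, a repressor of the same family, was covered at 22.7, 20.6 and 35.0 in Hopx-high and 4.89, 5.38 and 3.63 in Hopx-low libraries and at 0 in every library of the naive group. Ccne1, the cyclin that starts S phase, rose by 2.38 ± 0.35, and the kinase gene Cdk4 by 0.89 ± 0.18. Cdkn2c, an inhibitor of that kinase, rose too, at 21.7, 20.04 and 13.4 in Hopx-high, 3.37, 2.11 and 4.10 in Hopx-low and 0.647, 3.28 and 4.37 in naive libraries (log2 change 2.50 ± 0.48, limma adjusted p = 0.0005). Without Hopx-high replicate 3 the list had 1 lower gene.

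E2F sites were searched on both strands as TTTCCCGC, TTTCGCGC, TTTGCCGC or TTTGGCGC. They occurred in 29.1% of 55 promoter windows of the replication list and 27.3% of 33 of the G1 list, against 4.25% of 11370 windows of tested features. In mitosis genes the share was 9.46% of 74 windows, whereas CCAAT occurred in 73% of them against 38.4%. Within the replication list 30% of 30 windows of higher genes and 28% of 25 windows of genes not called held an E2F match. The 8 sites shown are those of the replication and G1 genes with the smallest adjusted p among higher genes with a match, with the match in capitals on the gene's own strand.
Uhrf1, chr17:56304118-56304145, plus strand: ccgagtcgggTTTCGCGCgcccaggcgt
Mcm5, chr8:75109350-75109377, plus strand: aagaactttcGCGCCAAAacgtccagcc
Lig1, chr7:13278842-13278869, plus strand: gccaaagtgcGCGCGAAAtctgtgtggc
Mcm3, chr1:20820276-20820303, minus strand: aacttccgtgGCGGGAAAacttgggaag
Cdc6, chr11:98908003-98908030, plus strand: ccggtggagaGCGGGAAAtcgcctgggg
Clspn, chr4:126556991-126557018, plus strand: ccgcgtctggGCGCGAAAgctcgaactt
E2f2, chr4:136172303-136172323, plus strand: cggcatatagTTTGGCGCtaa
Tfdp1, chr8:13338698-13338725, plus strand: ggcgccgaagGCGCGAAAaggcgcgcag
Mcm3, a further helicase subunit, rose by 1.47, Cdc6, which loads the helicase, by 2.89, Clspn, a checkpoint adaptor, by 3.03, and Tfdp1, the partner of E2F factors, by 1.36 on the log2 scale. These 4 were named for their sites after their values were seen.

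**Figure D2:**
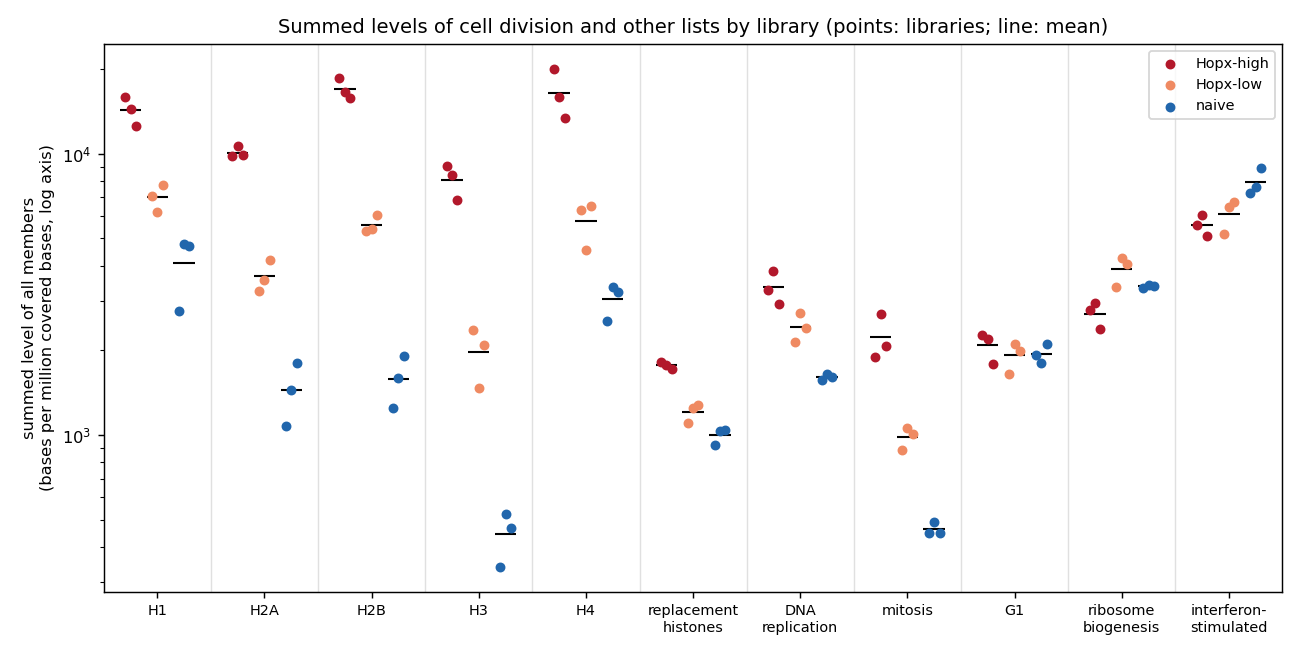
Summed level of all members of 11 gene lists in each of the 9 libraries (bases per megabase covered, log axis; points are libraries, lines are group means). Hopx-high libraries are above naive ones for every histone class, for replication and for mitosis, with Hopx-low libraries between them, and below naive ones for interferon-stimulated genes, where Hopx-high and Hopx-low libraries overlap.

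Of the 952 higher features, 65 had no coverage in any naive library. For these the fold is a lower bound. It was taken against a floor of 3 reads of estimated length over the naive group, which is a level of 0.411. It does not allow for the scatter between Hopx-high libraries. Penk, which encodes the opioid peptide precursor proenkephalin, stood at 41.0, 50.9 and 30.3 in Hopx-high and 22.9, 19.8 and 9.69 in Hopx-low libraries (chr4:4133536-4138815), at least 99.1-fold higher in Hopx-high than in naive cells. E2f8 was at least 63.5-fold higher, Pdzk1ip1, a membrane protein gene, at least 60.5-fold and the phospholipase gene Pla2g4f at least 59.8-fold. Arhgap20, a GTPase activator, was at least 56.0-fold higher, Rgs16, which shortens G protein signals from chemokine receptors, at least 53.9-fold and Birc5, the mitotic and survival protein survivin, at least 51.2-fold. Tnfsf4, which encodes the costimulatory ligand OX40L, stood at 17.7, 21.5 and 17.8 in Hopx-high and 8.41, 15.9 and 15.6 in Hopx-low libraries, at least 46.2-fold higher in Hopx-high than in naive cells.

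In the opposite direction 14 of the lower features had no coverage in any Hopx-high library. Ampd1, an AMP deaminase of muscle and lymphocytes, stood at 10.9, 10.4 and 11.4 in naive libraries (chr3:103073897-103099720), at least 18.9-fold lower in Hopx-high cells, against a floor of 3 reads over the Hopx-high group (0.576). The calcium sensor gene Guca1b was at least 8.18-fold lower, the ubiquitin ligase adaptor gene Kbtbd8 at least 7.91-fold and the amino acid transporter gene Slc6a19 at least 6.94-fold. In Hopx-low libraries Ampd1 stood at 0, 4.12 and 2.26.

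**Figure D3:**
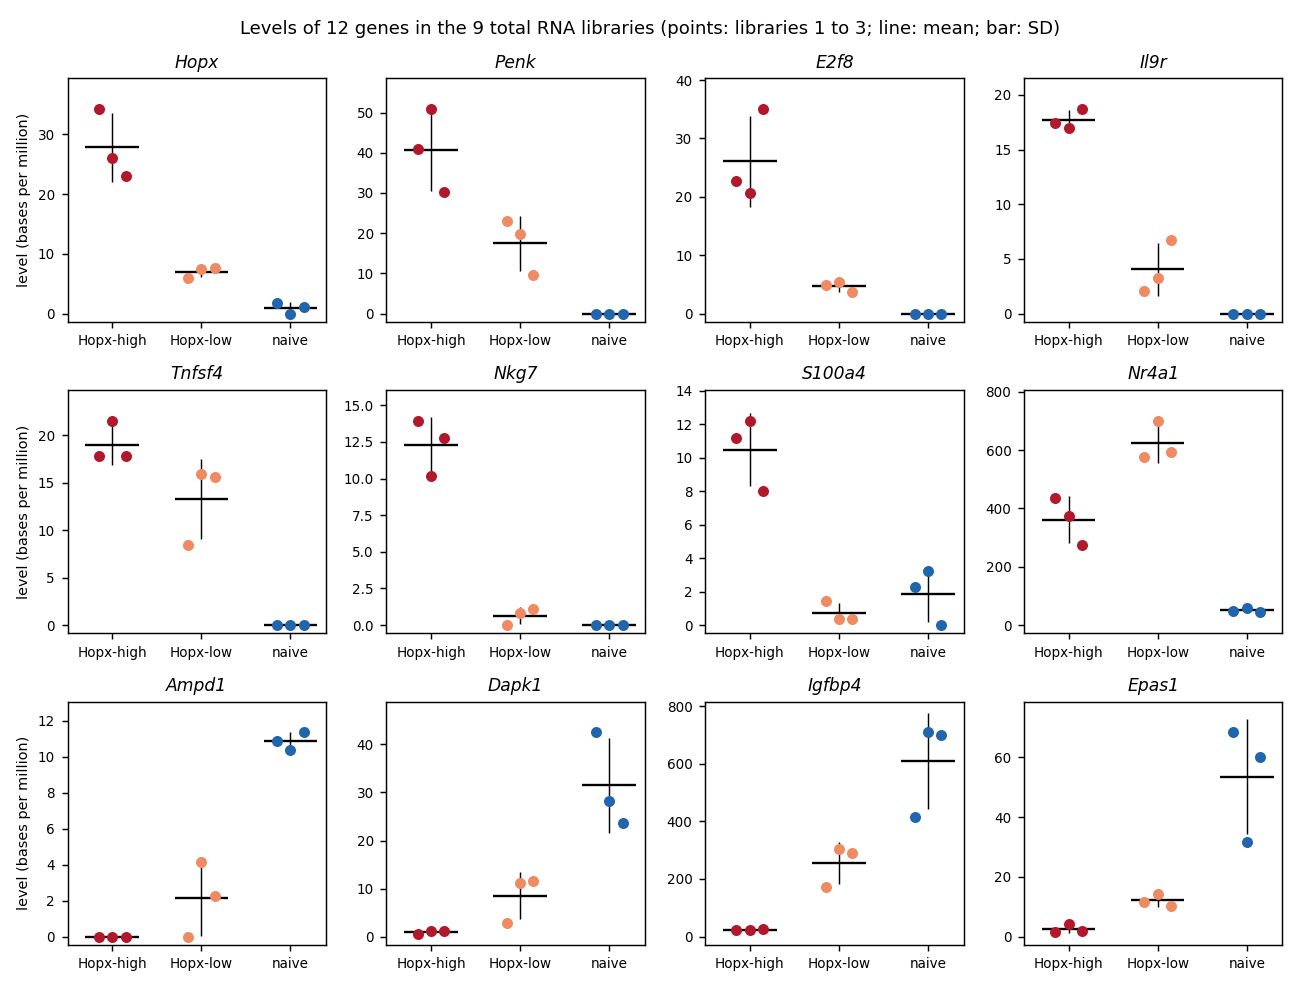
Levels of 12 genes in the 9 total RNA libraries (bases per megabase covered; points are libraries 1 to 3 of a group, lines are means and bars SDs). Penk, E2f8, Il9r, Tnfsf4 and Nkg7 are at 0 in all naive libraries and Ampd1 in all Hopx-high ones, S100a4 is low in both Hopx-low and naive libraries, and Nr4a1 is highest in Hopx-low libraries.

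Among cytokine receptors, 6 of 24 were higher (25%) and 9 lower (37.5%), against 8.41% and 15.1% of all tested features. Il9r, the receptor for interleukin 9, stood at 17.4, 17.0 and 18.7 in Hopx-high, 2.09, 3.29 and 6.73 in Hopx-low and 0 in every library of the naive group (log2 change 4.22 ± 0.46, limma adjusted p = 3.3e-07). Il12rb1, a chain of the receptors for interleukins 12 and 23, stood at 74.8, 79.1 and 91.9 in Hopx-high and 19.2, 26.8 and 25.5 in naive libraries (log2 change 1.75 ± 0.24, limma adjusted p = 1.3e-05). Il6ra, the interleukin 6 receptor, stood at 71.0, 96.4 and 65.5 in Hopx-high and 332, 216 and 248 in naive libraries (log2 change -1.76 ± 0.21, limma adjusted p = 1.1e-06). Ifngr2, the signalling chain of the interferon gamma receptor, stood at 54.1, 61.3 and 56.9 in Hopx-high, 100.5, 131 and 122 in Hopx-low and 124, 105 and 145 in naive libraries (log2 change -1.10 ± 0.20, limma adjusted p = 0.00041). Hopx-high and naive libraries did not overlap in any of these 4 genes. With only replicates 1 and 2 of each group the list had 3 higher and 3 lower.

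Of 15 cytokine and TNF family ligand genes 7 were higher (46.7%) and 2 lower (13.3%), against 8.41% and 15.1% of all tested features. Besides Tnfsf4 these included Tnfsf14, the ligand LIGHT, at 24.97, 20.8 and 33.1 in Hopx-high and 0.474, 1.56 and 0 in naive libraries (log2 change 4.11 ± 0.43, limma adjusted p = 1.7e-07), and Tnfsf11, the ligand RANKL (2.88 ± 0.45). Ebi3, a subunit of interleukins 27 and 35, stood at 29.8, 21.8 and 20.4 in Hopx-high and 0, 0 and 0.427 in naive libraries (log2 change 4.46 ± 0.42, limma adjusted p = 4e-08). Lta, which encodes lymphotoxin alpha, was covered in both groups and rose by 1.31 ± 0.23. Of 23 TNF receptors and TRAF adaptors 7 were higher (30.4%) and 4 lower (17.4%). The share higher was above the 8.41% of all tested features, and the share lower lay near their 15.1%. Tnfrsf4, the OX40 receptor whose ligand is Tnfsf4, stood at 116, 92.5 and 71.9 in Hopx-high and 7.38, 6.03 and 5.45 in naive libraries (log2 change 3.68 ± 0.27, limma adjusted p = 5.6e-10), and Tnfrsf18, the receptor GITR, rose by 1.45 ± 0.18. Among the lower ones were Tnfrsf25, the receptor DR3 (-0.85 ± 0.19), and Tnfrsf26 (-1.44 ± 0.27). The 2 lower ligand genes were 0 without Hopx-high replicate 3 and 0 without naive replicate 3, and 4 receptors and adaptors were higher and 2 lower without naive replicate 3.

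In the JAK, STAT and SOCS list 2 of 22 were higher (9.09%) and 5 lower (22.7%), against 8.41% and 15.1% of all tested features. Jak3, the kinase of the common gamma chain, rose by 0.63 ± 0.19, and Stat5a, the factor it activates, stood at 616, 484 and 476 in Hopx-high, 756, 722 and 717 in Hopx-low and 272, 376 and 291 in naive libraries (log2 change 0.75 ± 0.17, limma adjusted p = 0.0025). Socs1, a feedback inhibitor of these kinases, stood at 8.55, 7.59 and 10.5 in Hopx-high and 22.2, 29.6 and 28.2 in naive libraries (log2 change -1.49 ± 0.38, limma adjusted p = 0.0067). Pias1, an inhibitor of STAT factors, was lower too (-1.01 ± 0.26). Socs3 and Socs4, further inhibitors of cytokine signals, were among the 5 as well. Socs4 was not called with upper-quartile scaling, with quantile normalization, or with Hopx-high replicate 1 or 3 or any naive library left out. Jak3 was not called without Hopx-high replicate 3, naive replicate 1 or naive replicate 2. The list had 3 lower genes without Hopx-high replicate 1, Hopx-high replicate 3 or naive replicate 1.

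In the TGF-beta list 3 of 21 were higher (14.3%) and 6 lower (28.6%), against 8.41% and 15.1% of all tested features. The median change of the list was -0.64. Smad7, the inhibitory SMAD, stood at 121, 126 and 106 in Hopx-high, 217, 257 and 249 in Hopx-low and 369, 390.1 and 443 in naive libraries (log2 change -1.76 ± 0.17, limma adjusted p = 6.6e-08), so the 3 groups were apart. The SMAD corepressor gene Ski (-0.90 ± 0.17), the activin receptor gene Acvr1b (-1.06 ± 0.23) and the shared partner Smad4 (-0.84 ± 0.25) were also lower. Tgif1, another corepressor of SMADs, was higher, at 53.7, 62.6 and 66.1 in Hopx-high and 11.1, 24.7 and 30.7 in naive libraries (log2 change 1.52 ± 0.32, limma adjusted p = 0.0013). Without naive replicate 1 the list had 1 higher and 3 lower, and 1 was higher without Hopx-high replicate 2 or naive replicate 3. Smad4 was not called without Hopx-high replicate 1, naive replicate 1 or naive replicate 3. Of 23 genes of the Wnt and Notch pathways 4 were higher (17.4%) and 6 lower (26.1%), against 8.41% and 15.1% of all tested features. Wnt5b, a ligand of the noncanonical Wnt pathway, was low in Hopx-high cells at 0.963, 3.13 and 2.95, against 13.6, 9.80 and 10.3 in Hopx-low and 14.7, 26.2 and 16.0 in naive libraries (log2 change -2.61 ± 0.42, limma adjusted p = 7.1e-05). Axin2, both a target and an inhibitor of the canonical pathway, stood at 32.1, 41.6 and 29.0 in Hopx-high and 104, 112 and 86.1 in naive libraries (log2 change -1.54 ± 0.28, limma adjusted p = 0.00039). Hes5, a target of Notch, was higher (2.76 ± 0.50), and Dtx1, a regulator of Notch, was lower (-1.05 ± 0.21).

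T cell receptor and proximal signalling genes had 3 of 34 higher (8.82%) and 8 lower (23.5%), against 8.41% and 15.1% of all tested features, so the share higher lay near that of all features. There were 6 higher and 7 lower with upper-quartile scaling. The median change, -0.15, turned to 0.07 with that scaling. The kinase genes Txk (-1.72 ± 0.32) and Prkcq (-1.20 ± 0.21), which relay the receptor's signal, and the adaptor gene Grap2 (-1.08 ± 0.21) were lower. Icos, a costimulatory receptor, stood at 55.2, 80.2 and 29.1 in Hopx-high and 16.3, 17.3 and 15.2 in naive libraries (log2 change 1.58 ± 0.33, limma adjusted p = 0.0011), and Cd6, a modulator of the receptor, rose by 0.84 ± 0.15. Leaving out Hopx-high replicate 1 or 3 left 5 lower genes.

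Brakes on this signal had 9 of 37 higher (24.3%) and 7 lower (18.9%), against 8.41% and 15.1% of all tested features. The share lower lay near that of all features. With upper-quartile scaling 13 were higher and 7 lower, where 12.2% and 10.5% of all tested features were called. Dusp4, a phosphatase of MAP kinases, was nearly silent in naive cells, at 78.2, 90.3 and 48.9 in Hopx-high, 31.7, 29.0 and 31.8 in Hopx-low and 0.291, 1.03 and 2.59 in naive libraries (log2 change 5.08 ± 0.38, limma adjusted p = 6.5e-10). Spry1, an inhibitor of the Ras pathway, stood at 10.03, 17.1 and 10.3 in Hopx-high and 1.12, 0 and 0 in naive libraries (log2 change 3.35 ± 0.45, limma adjusted p = 8.2e-06). Dgkz, the diacylglycerol kinase that ends Ras activation and is known from anergic T cells, was high in all groups, at 2935, 2542 and 2542 in Hopx-high and 1253, 1438 and 1480.4 in naive libraries (log2 change 0.94 ± 0.14, limma adjusted p = 3.3e-05). In the other direction went Rasa3, a Ras inhibitor, at 177, 226 and 168 in Hopx-high and 765, 652 and 599 in naive libraries (log2 change -1.82 ± 0.19, limma adjusted p = 1.3e-07), and Sit1, an inhibitory adaptor (-1.30 ± 0.19). Hopx-high and naive libraries did not overlap in any of these 5 genes. Inhibitory receptor genes were higher in 7 of 15 cases (46.7%) and lower in 1 (6.67%), against 8.41% and 15.1% of all tested features. The lower one, 4632428N05Rik, encodes VISTA, an inhibitory receptor of resting T cells, and stood at 476, 397 and 348 in Hopx-high, 712, 846 and 810.4 in Hopx-low and 1250.3, 1366 and 1382 in naive libraries (log2 change -1.72 ± 0.16, limma adjusted p = 2.8e-08).

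Transcription factors of the NR4A, EGR and NFAT group are induced through the T cell receptor. Of 16 tested, 8 were higher (50%) and 0 lower, against 8.41% and 15.1% of all tested features. Nr4a3 stood at 18.1, 38.3 and 23.5 in Hopx-high, 41.7, 46.5 and 41.7 in Hopx-low and 5.39, 1.05 and 1.90 in naive libraries (log2 change 2.97 ± 0.40, limma adjusted p = 7.7e-06), and Nab2, a corepressor of EGR factors, rose by 1.12 ± 0.18. Of 18 AP-1 and BACH genes 2 were higher (11.1%) and 4 lower (22.2%), against 8.41% and 15.1% of all tested features. Jdp2, a repressor of AP-1, stood at 34.9, 23.97 and 29.3 in Hopx-high, 17.9, 11.3 and 9.49 in Hopx-low and 0.815, 0.415 and 0 in naive libraries (log2 change 4.46 ± 0.41, limma adjusted p = 2.8e-08). Batf, the partner of IRF4 in effector T cells, stood at 258, 289.6 and 263 in Hopx-high and 48.8, 51.6 and 94.2 in naive libraries (log2 change 2.10 ± 0.24, limma adjusted p = 6.1e-07). Junb (-0.84 ± 0.21) and Jund (-0.50 ± 0.18) were lower, but Jund was not called with upper-quartile scaling, with totals without Lars2 or in 6 of the 9 fits that leave out 1 library. The AP-1 and BACH list had 2 lower genes without Hopx-high replicate 1 or naive replicate 3, and 3 genes of the NR4A, EGR and NFAT group were lower without Hopx-high replicate 2. Of 19 NF-kappaB genes 5 were higher (26.3%) and 1 lower (5.26%), against 8.41% and 15.1% of all tested features. With upper-quartile scaling 8 were higher. The 5 higher ones were Nfkb2 and Relb, the subunits of the alternative pathway, with Nfkbie, Nfkbid and Tnip1, inhibitors of the family. Relb stood at 191, 176 and 162 in Hopx-high and 60.7, 82.3 and 80.4 in naive libraries (log2 change 1.24 ± 0.20, limma adjusted p = 6.8e-05). The lower one was the kinase gene Ikbkb (-0.79 ± 0.23). It was not called without Hopx-high replicate 3 or naive replicate 1, and without Hopx-low replicate 1 there were 3 lower genes.

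Factors of effector and lineage fates were higher in 15 of 32 cases (46.9%) and lower in 5 (15.6%), with a median of 0.66. Among all tested features 8.41% were higher and 15.1% lower, so the share lower lay near theirs. Bhlhe40, a regulator of cytokine output, stood at 54.9, 62.7 and 56.2 in Hopx-high, 31.5, 43.4 and 29.7 in Hopx-low and 1.05, 1.58 and 1.28 in naive libraries (log2 change 4.68 ± 0.32, limma adjusted p = 1.7e-10). Irf4, which scales effector programmes with receptor signal, stood at 146, 192 and 177 in Hopx-high and 12.04, 6.07 and 9.40 in naive libraries (log2 change 4.12 ± 0.26, limma adjusted p = 4.3e-11), and Sox4, a target of TGF-beta in T cells, rose by 3.14 ± 0.24. Of 29 factors of naive and resting T cells 14 were lower (48.3%) and 4 higher (13.8%), against 15.1% and 8.41% of all tested features. Klf2, which drives genes of recirculation, stood at 187, 154 and 115 in Hopx-high, 292, 256 and 385 in Hopx-low and 559.7, 775 and 770.2 in naive libraries (log2 change -2.21 ± 0.20, limma adjusted p = 2.7e-08). Satb1, a chromatin organiser of T cells, stood at 279.7, 362 and 256 in Hopx-high and 859, 773 and 799 in naive libraries (log2 change -1.45 ± 0.18, limma adjusted p = 2.3e-06). Myb and Id3 went against the list's name: Myb, known from cycling progenitors, stood at 333, 337 and 213 in Hopx-high and 27.0, 24.2 and 27.3 in naive libraries (log2 change 3.41 ± 0.21, limma adjusted p = 1.8e-11), and Id3, an inhibitor of E proteins, rose by 1.12 ± 0.18. The 14 lower factors were 8 with upper-quartile scaling, 9 when Hopx-high replicate 1 was left out, and 7 when Hopx-high replicate 3, naive replicate 1 or naive replicate 3 was. The 5 lower factors of effector and lineage fates were 3 when Hopx-high replicate 1, Hopx-high replicate 3 or naive replicate 1 was.

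Receptors that guide T cells through lymphoid organs and tissues changed in both directions, with 6 of 19 chemokine receptor and egress genes higher and 6 lower. Each is 31.6%, against 8.41% higher and 15.1% lower among all tested features. S1pr4, a receptor for the lipid that draws T cells out of lymphoid organs, stood at 254, 235 and 251 in Hopx-high, 416, 379 and 449 in Hopx-low and 572, 711 and 779 in naive libraries (log2 change -1.46 ± 0.17, limma adjusted p = 6.1e-07), and its relative S1pr1 was also lower (-2.15 ± 0.22). Ccr9, the gut-homing receptor, stood at 1.65, 5.68 and 3.05 in Hopx-high, 9.92, 18.9 and 13.3 in Hopx-low and 58.0, 28.05 and 44.7 in naive libraries (log2 change -3.37 ± 0.40, limma adjusted p = 1.4e-06). Cxcr3, which leads cells to inflamed tissue, stood at 104, 69.0 and 60.5 in Hopx-high, 25.8, 20.8 and 20.5 in Hopx-low and 2.61, 0.569 and 0 in naive libraries (log2 change 5.43 ± 0.41, limma adjusted p = 9.6e-10). Ccr8, a receptor of regulatory and skin-homing T cells, rose by 3.95 ± 0.45.

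Integrins and adhesion receptors were lower in 9 of 24 cases (37.5%) and higher in 3 (12.5%), with a median of -0.62. Among all tested features 15.1% were lower and 8.41% higher. Itgb3, the integrin beta 3 chain, stood at 83.3, 76.8 and 62.2 in Hopx-high, 111, 212 and 202 in Hopx-low and 502, 485 and 498 in naive libraries (log2 change -2.73 ± 0.22, limma adjusted p = 2.1e-09). Itgb7, the chain of gut-homing integrins, stood at 521, 474 and 542 in Hopx-high and 1009.6, 1278 and 1649.7 in naive libraries (log2 change -1.33 ± 0.18, limma adjusted p = 1e-05), and Selplg, the ligand of P-selectin, was also lower (-1.21 ± 0.18). Itgal, the LFA-1 chain that binds T cells to antigen-presenting cells, was higher, at 1874, 2032 and 1531 in Hopx-high and 966, 785 and 902 in naive libraries (log2 change 1.03 ± 0.16, limma adjusted p = 4.3e-05), as was Cd44 (2.17 ± 0.29).

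The S100, annexin and galectin list also holds genes of other families, such as Capg, Crip1 and Hopx itself. Of the 22 genes tested in this mixed list 8 were higher and 2 lower. These are 36.4% and 9.09%, against 8.41% and 15.1% of all tested features. Hopx is among the 8, and since the Hopx-high group was defined by it, its rise is not a result about the list. S100a4, a calcium sensor of motile and memory cells, stood at 11.2, 12.2 and 8.02 in Hopx-high, 1.41, 0.389 and 0.333 in Hopx-low and 2.30, 3.25 and 0 in naive libraries (log2 change 2.23 ± 0.54, limma adjusted p = 0.0041), with both of the other groups below every Hopx-high library. Lmna, the nuclear lamin A gene, stood at 58.8, 73.0 and 71.3 in Hopx-high, 24.6, 35.0 and 28.7 in Hopx-low and 5.97, 9.38 and 8.48 in naive libraries (log2 change 2.96 ± 0.29, limma adjusted p = 6.4e-08). Anxa2 rose by 1.56 ± 0.41 and Capg by 0.97 ± 0.23, whereas Crip1 was lower (-1.06 ± 0.20). With only replicates 1 and 2 the list had 3 higher and 1 lower, and 5 were higher without naive replicate 1 and 4 without naive replicate 3, a fit in which Anxa2 was not called. Actin and myosin genes were split, with 10 of 38 higher (26.3%) and 9 lower (23.7%), against 8.41% and 15.1% of all tested features. Actg1, cytoplasmic gamma actin, rose by 1.10 ± 0.16. Flna, the filamin that crosslinks actin, stood at 743, 1084 and 834 in Hopx-high and 2051, 2149 and 1756 in naive libraries (log2 change -1.17 ± 0.17, limma adjusted p = 2.3e-05). Without naive replicate 1 that list had 5 higher and 7 lower, and without Hopx-high replicate 1 it had 6 higher.

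Cytotoxic genes had 2 of 12 higher (16.7%) and 1 lower (8.33%), against 8.41% and 15.1% of all tested features. Nkg7, a granule membrane protein of killer cells, stood at 14.0, 10.2 and 12.8 in Hopx-high, 0, 0.847 and 1.06 in Hopx-low and 0 in every library of the naive group, at least 29.9-fold higher in Hopx-high than in naive cells. Prf1, which encodes the pore-forming protein perforin, went the other way, at 18.4, 17.95 and 17.8 in Hopx-high, 15.8, 40.2 and 37.0 in Hopx-low and 116, 119.8 and 153 in naive libraries (log2 change -2.77 ± 0.30, limma adjusted p = 2.9e-07). Serpinb6b, a protease inhibitor, rose by 1.60 ± 0.54, although its lowest Hopx-high library lay below the 2 highest naive ones and its call was lost without Hopx-high replicate 1 or 2 or naive replicate 1 or 3. Without Hopx-low replicate 1 the list had 3 lower genes. Among the falls outside these lists was Arl4c, an ARF-like GTPase, at 200.1, 169 and 151 in Hopx-high, 327, 425 and 449 in Hopx-low and 1187, 1285 and 1357 in naive libraries (log2 change -2.88 ± 0.17, limma adjusted p = 1.5e-11).

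Interferon-stimulated genes held more falls than any other list, though a larger share of the small GIMAP and Ly6 lists fell. Of 65 tested, 37 were lower in Hopx-high cells and 0 higher, against 15.1% lower among all tested features, with a median of -0.98 and not -0.29. With upper-quartile scaling 31 were lower and 4 higher. Their summed level was 5579, 6068 and 5082 in Hopx-high, 5176, 6478 and 6723 in Hopx-low and 7257, 7598 and 8878 in naive libraries, so every activated library lay below every naive one. Irf7, the factor that amplifies type I interferon responses, stood at 92.1, 67.9 and 72.9 in Hopx-high, 107, 112 and 124 in Hopx-low and 198, 261 and 307 in naive libraries (log2 change -1.69 ± 0.20, limma adjusted p = 1.5e-06). Oas2, which makes the messenger that switches on RNase L, stood at 6.67, 5.90 and 4.60 in Hopx-high and 53.5, 34.2 and 65.6 in naive libraries (log2 change -2.92 ± 0.34, limma adjusted p = 8e-07). Gbp7, a guanylate-binding protein of cell-autonomous defence, stood at 4.64, 10.04 and 5.11 in Hopx-high and 47.2, 49.5 and 34.6 in naive libraries (log2 change -2.61 ± 0.36, limma adjusted p = 1.1e-05). The GTPase genes Tgtp1 (-2.97 ± 0.33) and Tgtp2 (-2.43 ± 0.26) fell too, but they are near-identical copies, whose reads may not be told apart. No member of the list was called between Hopx-high and Hopx-low cells in either direction. The number lower was 29 without Hopx-high replicate 3 and 21 with only replicates 1 and 2, and 2 were higher without naive replicate 3.

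Promoters of many of these genes hold the interferon-stimulated response element, searched on both strands as GAAA, any 2 bases and GAAA. It occurred in 51.8% of 56 promoter windows of the list, against 3.18% of 11370 windows of tested features. The share was 56.7% of 30 windows of lower genes and 46.2% of 26 windows of genes not called. The 8 elements shown belong to the lower genes with the smallest adjusted p among those with a match, with the element in capitals on the gene's own strand.
Tgtp2, chr11:49064263-49064292, minus strand: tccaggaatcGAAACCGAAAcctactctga
Tgtp1, chr11:48992304-48992333, minus strand: tccaggaatcGAAACTGAAAcctacctgac
Gbp7, chr3:142530273-142530302, plus strand: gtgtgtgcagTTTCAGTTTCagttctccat
Ifit3, chr19:34583397-34583426, plus strand: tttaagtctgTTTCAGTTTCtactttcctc
Igtp, chr11:58199512-58199541, plus strand: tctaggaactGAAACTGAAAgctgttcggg
Irgm2, chr11:58214903-58214932, plus strand: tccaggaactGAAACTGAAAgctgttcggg
Gbp2, chr3:142620594-142620623, plus strand: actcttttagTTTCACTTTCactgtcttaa
Bst2, chr8:71537577-71537606, minus strand: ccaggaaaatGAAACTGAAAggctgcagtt
The changes were -2.71 for Ifit3, which blocks translation of foreign RNA, -1.60 for Igtp and -1.80 for Irgm2, neighbouring GTPase genes, -1.81 for Gbp2 and -1.37 for Bst2, the tether of budding virus particles, 5 genes named for their sites after their values were seen.

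MHC class I genes were lower in 9 of 22 cases (40.9%, against 15.1% of all tested features) and higher in 0. The median change of these genes was -0.45. Their summed level was 16614, 15802 and 13964 in Hopx-high and 18627, 22526 and 23286 in naive libraries, which did not overlap. H2-K1, a classical class I chain, stood at 6946, 6339.7 and 5519 in Hopx-high and 7776, 9736 and 9775 in naive libraries (log2 change -0.54 ± 0.14, limma adjusted p = 0.0084), a call that was lost with upper-quartile scaling and without Hopx-high replicate 3 or naive replicate 2. H2-T23, which encodes the nonclassical chain Qa-1, stood at 586, 524 and 521 in Hopx-high and 778, 992 and 983 in naive libraries (log2 change -0.75 ± 0.17, limma adjusted p = 0.0022). The number of lower genes was 6 with upper-quartile scaling, 4 without Hopx-high replicate 3, 5 without naive replicate 2 and 2 with only replicates 1 and 2, and class I genes share long stretches of sequence. Of 10 MHC class II genes 3 were higher (30%, against 8.41% of all tested features): H2-Oa (3.52 ± 0.28), Cd74 (2.36 ± 0.41) and H2-DMb1 (1.47 ± 0.51). H2-Oa, a brake on peptide loading, stood at 137, 152 and 172 in Hopx-high, 90.6, 149.8 and 116 in Hopx-low and 8.05, 11.1 and 21.1 in naive libraries. H2-DMb1 was not called when any Hopx-high library, naive replicate 1 or naive replicate 2 was left out, and 5 class II genes were higher without Hopx-high replicate 1 or naive replicate 2. B cell markers moved in the same direction. Of 14, 10 were tested and 3 were higher (Cd79b, Cd22 and Fcer2a), and their summed level was 67.4 to 109.5 in Hopx-high, 14.6 to 23.9 in Hopx-low and 16.3 to 66.9 in naive libraries. Their part in the class II result was not tested, and in such bulk samples fewer cells of a type and less RNA per cell cannot be told apart.

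GIMAP genes are a cluster of lymphocyte GTPases at chr6:48647186-48770851 that supports survival of resting T cells. Of 8 tested, 5 were lower (62.5%) and 0 higher, against 15.1% and 8.41% of all tested features. Gimap6 stood at 210.5, 329.7 and 224 in Hopx-high, 189, 401 and 384 in Hopx-low and 523, 543 and 452 in naive libraries (log2 change -1.01 ± 0.24, limma adjusted p = 0.0035), and Gimap3 changed by -0.88 ± 0.17 without overlap. Their summed level was 1364 to 1647 in Hopx-high and 2335 to 2509.6 in naive libraries. Ly6 surface antigen genes were lower in 6 of 10 cases (60%) and higher in 0, against 15.1% and 8.41% of all tested features. Ly6a, which encodes Sca-1 and is itself induced by interferon, stood at 50.7, 61.7 and 52.9 in Hopx-high, 71.6, 123 and 88.5 in Hopx-low and 206, 224 and 333 in naive libraries (log2 change -2.16 ± 0.23, limma adjusted p = 2.3e-07). Thy1, the pan-T-cell antigen, fell by less (-0.67 ± 0.19), and was not called with upper-quartile scaling or without naive replicate 3.

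**Figure D4:**
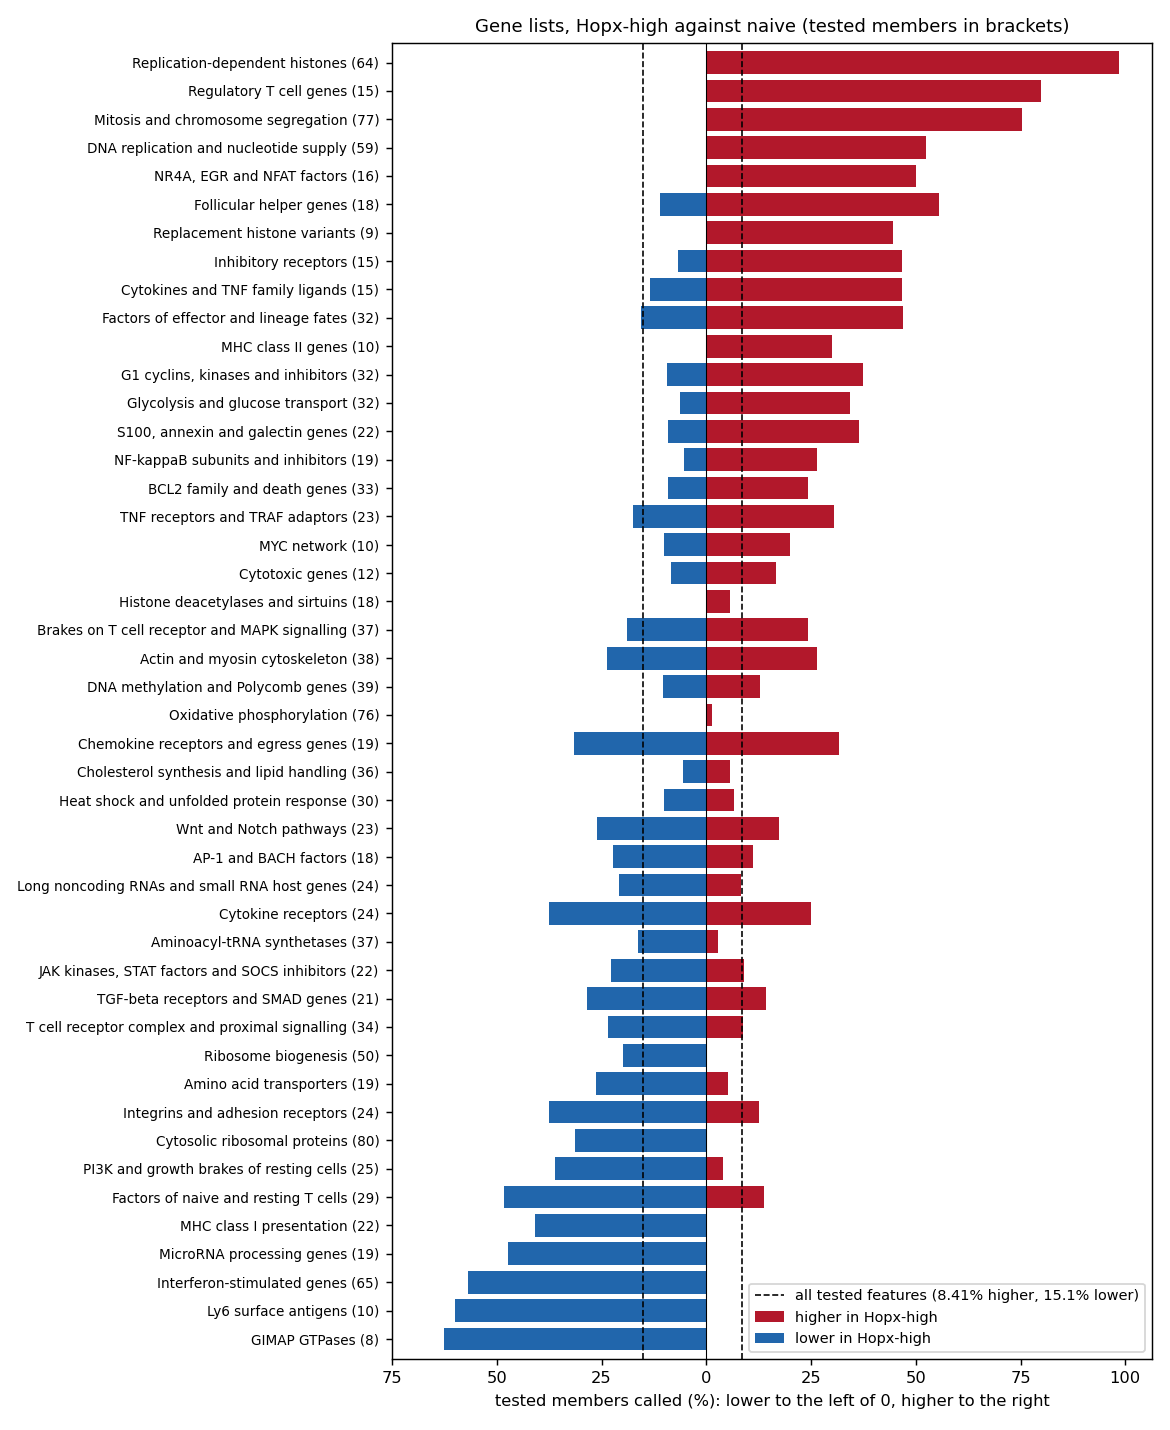
Share of tested members called higher (red, to the right) and lower (blue, to the left) in each gene list, Hopx-high against naive cells, in percent. Dashed lines mark the shares among all tested features, 8.41% and 15.1%. Histones, mitosis, regulatory T cell and replication genes lie far to the right, and Ly6, GIMAP and interferon-stimulated genes far to the left.

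Of 50 ribosome biogenesis genes, which build rRNA and its particles in growing cells, 10 were lower in Hopx-high cells and 0 higher, against 15.1% and 8.41% of all tested features, so the share lower, 20%, lay near that of all features. The median change was -0.59. Among all tested features 0.919% were lower and 1.22% higher than in Hopx-low cells, against 6 and 0 of these 50 genes. Their summed level was 2776, 2952 and 2375 in Hopx-high, 3359, 4259.8 and 4061 in Hopx-low and 3324, 3408 and 3392 in naive libraries, so that Hopx-high libraries were the lowest. Nop56, a core protein of box C/D particles, stood at 51.0, 61.7 and 51.4 in Hopx-high, 86.1, 109.6 and 114 in Hopx-low and 95.9, 88.8 and 98.5 in naive libraries (log2 change -0.78 ± 0.21, limma adjusted p = 0.0086). Bysl, a factor of the small subunit, stood at 33.3, 34.5 and 41.5 in Hopx-high and 66.0, 64.1 and 70.6 in naive libraries (log2 change -0.86 ± 0.23, limma adjusted p = 0.0085). The counts against naive cells depended on the setting: 6 were lower and 3 higher with upper-quartile scaling. The number lower was 6 when Hopx-high replicate 3 was left out, 5 when naive replicate 1 was, and 0 with only replicates 1 and 2. The E-box CACGTG, the letters that MYC proteins recognise, occurred in 19.2% of 52 promoter windows of the list, against 10.2% of windows of tested features. It was in 44.4% of 9 windows of lower genes, which is 4 windows, and in 14% of 43 windows of genes not called. Cytosolic ribosomal protein genes were lower in 25 of 80 cases (31.25%) and higher in 0, against 15.1% and 8.41% of all tested features. With upper-quartile scaling 6 were lower and 2 higher, where 10.5% and 12.2% of all tested features were. The number lower was 12 without Hopx-high replicate 3 and 7 without naive replicate 2. Rps27 stood at 30.9, 39.2 and 37.3 in Hopx-high, 56.9, 63.9 and 85.1 in Hopx-low and 75.8, 89.8 and 95.2 in naive libraries (log2 change -1.26 ± 0.23, limma adjusted p = 0.00035).

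In the MYC network 2 of 10 genes were higher (20%) and 1 lower (10%), against 8.41% and 15.1% of all tested features. The higher ones are antagonists of MYC that compete for its partner MAX: Mxd3, known from S phase, stood at 53.1, 48.5 and 44.8 in Hopx-high, 4.12, 13.5 and 14.0 in Hopx-low and 0.0421, 0.6003 and 0.604 in naive libraries (log2 change 5.16 ± 0.44, limma adjusted p = 7.3e-09). Mxd4 stood at 285, 245 and 182 in Hopx-high, 179.7, 228 and 158 in Hopx-low and 60.3, 52.5 and 61.5 in naive libraries (log2 change 1.99 ± 0.21, limma adjusted p = 1.6e-07). Neither gene overlapped between Hopx-high and naive libraries. Amino acid transporters had 1 of 19 higher and 5 lower (26.3%), among them Slc38a2 (-0.96 ± 0.22), a glutamine carrier. Aminoacyl-tRNA synthetases had 1 of 37 higher and 6 lower, 16.2% and so near the 15.1% of all tested features. The 5 transporters were 2 without Hopx-high replicate 3 and 3 without naive replicate 3. The 6 synthetases were 2 without Hopx-high replicate 3 or naive replicate 1 and 10 without Hopx-high replicate 2. Trib3, a target of the amino acid stress response, stood at 3.20, 2.85 and 0.720 in Hopx-high and 15.4, 27.9 and 29.3 in naive libraries (log2 change -3.01 ± 0.46, limma adjusted p = 4.5e-05), and Atf4, the factor of that response, was lower as well (-0.84 ± 0.24), but not called without Hopx-high replicate 1 or naive replicate 3.

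Glycolysis genes were higher in 11 of 32 cases (34.4%) and lower in 2 (6.25%), against 8.41% and 15.1% of all tested features. Tpi1, triose phosphate isomerase, stood at 90.8, 89.6 and 99.0 in Hopx-high and 29.4, 27.4 and 29.3 in naive libraries (log2 change 1.66 ± 0.21, limma adjusted p = 3.6e-06), and Hk2, the inducible hexokinase, rose by 2.42 ± 0.42. Pdk1, a kinase that keeps pyruvate out of mitochondria, went the other way, at 49.7, 73.3 and 54.4 in Hopx-high, 84.7, 100.2 and 98.5 in Hopx-low and 311, 196 and 232 in naive libraries (log2 change -2.03 ± 0.22, limma adjusted p = 2.3e-07). Of 76 genes of oxidative phosphorylation 1 was higher, the ATP synthase gene Atp5g3 (0.96 ± 0.19), and 12 were with upper-quartile scaling, and 3 without Hopx-high replicate 2, Hopx-low replicate 1 or naive replicate 2. Without Hopx-high replicate 2 also 3 were lower. Sterol and lipid genes had 2 of 36 higher and 2 lower (5.56% each), below the 8.41% and 15.1% of all tested features. Scd2, a fatty acid desaturase, stood at 478, 614 and 409 in Hopx-high and 145, 121 and 168 in naive libraries (log2 change 1.78 ± 0.21, limma adjusted p = 9.3e-07). Growth brakes of resting cells were lower in 9 of 25 cases (36%) and higher in 1 (4%), against 15.1% and 8.41% of all tested features. Txnip, an inhibitor of glucose uptake, stood at 326, 378 and 332 in Hopx-high, 434, 754 and 675 in Hopx-low and 1151, 1059 and 1416 in naive libraries (log2 change -1.80 ± 0.19, limma adjusted p = 2.2e-07). Pik3ip1, an inhibitor of PI3 kinase, was lower too (-0.95 ± 0.18).

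Genes of cell death had 8 of 33 higher (24.2%) and 3 lower (9.09%), against 8.41% and 15.1% of all tested features. The lower ones were 1 without Hopx-high replicate 1, 5 without Hopx-high replicate 2 and 0 without Hopx-high replicate 3 or naive replicate 1. Bcl2l1, which encodes the survival protein Bcl-xL, stood at 193, 172 and 136 in Hopx-high and 38.3, 47.8 and 50.02 in naive libraries (log2 change 1.85 ± 0.21, limma adjusted p = 7.3e-07). Bmf, a killer protein of the same family, rose as well (1.57 ± 0.25). Dapk1, a death-associated kinase outside the list, stood at 0.447, 1.12 and 1.20 in Hopx-high, 2.85, 11.2 and 11.6 in Hopx-low and 42.5, 28.3 and 23.6 in naive libraries (log2 change -4.06 ± 0.47, limma adjusted p = 8.6e-07). Epas1, a hypoxia-inducible factor, was likewise low, at 1.52, 4.13 and 1.88 in Hopx-high, 11.5, 14.4 and 10.3 in Hopx-low and 68.4, 31.8 and 60.2 in naive libraries (log2 change -3.96 ± 0.39, limma adjusted p = 7.6e-08). For both, the 3 groups were apart.

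Of 39 DNA methylation and Polycomb genes 5 were higher (12.8%) and 4 lower (10.3%), near the 8.41% and 15.1% of all tested features, and 7 were lower without Hopx-high replicate 2. The chromobox readers of Polycomb marks were among both. Cbx2 stood at 160.0, 129 and 112 in Hopx-high and 55.7, 65.8 and 60.6 in naive libraries (log2 change 1.11 ± 0.20, limma adjusted p = 0.00026), and Cbx7 at 105, 109 and 99.4 in Hopx-high and 224, 309 and 213 in naive libraries (log2 change -1.22 ± 0.19, limma adjusted p = 5.2e-05). Of the Polycomb-like proteins, Phf19 rose (2.06 ± 0.37) and Phf1 fell (-1.55 ± 0.19). Of 18 histone deacetylase and sirtuin genes, which include known partners of Hopx, 1 was called (5.56%), below the 23.6% of all tested features. It was Hdac9, at 1.72, 2.43 and 3.49 in Hopx-high and 0, 0.659 and 0 in naive libraries (log2 change 1.55 ± 0.50, limma adjusted p = 0.029), and it was not called without Hopx-high replicate 3, naive replicate 1 or naive replicate 3. Without Hopx-low replicate 1 the list had 3 lower genes. MicroRNA processing genes were lower in 9 of 19 cases (47.4%, against 15.1% of all tested features) and higher in 0. The median change of these genes was -0.66. Ddx5, a helicase of the microRNA processing complex, stood at 108, 200.5 and 129 in Hopx-high and 382, 289 and 330.1 in naive libraries (log2 change -1.23 ± 0.22, limma adjusted p = 0.00033), and Tnrc6c, a partner of Argonaute, was lower too (-0.89 ± 0.20). The 9 were 5 with upper-quartile scaling, 3 without Hopx-high replicate 1 or 3, 3 without naive replicate 1, 5 without naive replicate 3 and 2 with only replicates 1 and 2.

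Long noncoding RNAs and small RNA host genes had 2 of 24 higher (8.33%) and 5 lower (20.8%), near the 8.41% and 15.1% of all tested features. Malat1, a nuclear RNA of speckles, stood at 1672, 3681 and 1752 in Hopx-high and 6463, 5096 and 4075 in naive libraries (log2 change -1.21 ± 0.25, limma adjusted p = 0.0026), and Neat1, the scaffold of paraspeckles, at 103, 159 and 167 in Hopx-high, 149, 274 and 334 in Hopx-low and 403, 438 and 472 in naive libraries (log2 change -1.64 ± 0.24, limma adjusted p = 3e-05). Gas5, a host of small nucleolar RNAs that gathers in cells with arrested growth, was higher, at 1137, 841 and 1282 in Hopx-high and 639.8, 522 and 309.8 in naive libraries (log2 change 1.19 ± 0.24, limma adjusted p = 0.0016). Terc, the RNA template of telomerase, rose by 1.14 ± 0.32. In all 4 the Hopx-high and naive libraries were apart, but reads of Gas5 cannot be told apart from those of the small RNAs in its introns. Gas5 was not called with quantile normalization or with totals without Lars2, Malat1 not with quantile normalization, and Terc not without naive replicate 2. The 5 lower RNAs were 3 with upper-quartile scaling, 3 without Hopx-high replicate 1 or naive replicate 1 and 2 without naive replicate 3.

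**Figure D5:**
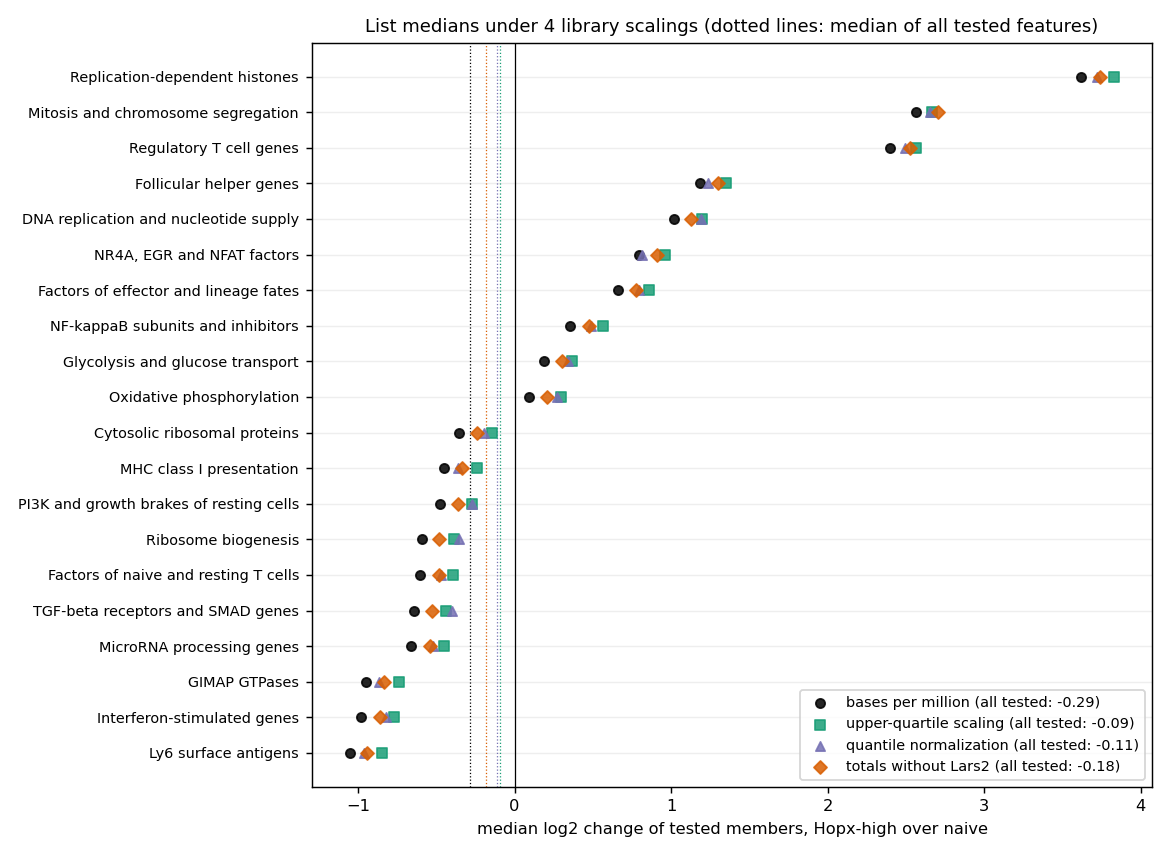
Median log2 change of 20 gene lists, Hopx-high over naive cells, under 4 scalings of the libraries, with a dotted line for the median of all tested features in each. Histone, mitosis and regulatory T cell lists are above 0 and interferon-stimulated and GIMAP lists below 0, and each of the 20 medians keeps its sign under all 4. Cytosolic ribosomal proteins lie close to the median of all tested features.

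The direct comparison of Hopx-high with Hopx-low cells shows which changes differed with the level of Hopx among activated cells. Of 11320 features 138 were higher (1.22%) and 104 lower (0.919%). Both comparisons share the Hopx-high libraries, so the 136 features higher and 91 lower in both are given as counts alone. Division genes made up 98 of the 138 higher features, among them 60 replication-dependent histone genes and 26 mitosis genes, and 0 of the 104 lower ones. With upper-quartile scaling there were 204 higher and 94 lower. Without Hopx-high replicate 3 there were 89 higher and 43 lower, without Hopx-low replicate 2 109 and 39, and without Hopx-low replicate 3 99 and 34. Lars2 took 17.98% of the bases of Hopx-low replicate 1.

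Outside the division lists, Nkg7 differed most among genes higher than in both other groups (log2 difference 3.08 ± 0.47, limma adjusted p = 0.00034), followed by S100a4 (log2 difference 2.78 ± 0.54, limma adjusted p = 0.0045) and Nrp2 (log2 difference 2.56 ± 0.48, limma adjusted p = 0.0037). Nrp2, a receptor for semaphorins, stood at 11.9, 9.85 and 9.29 in Hopx-high, 0.391, 2.01 and 0.680 in Hopx-low and 0, 0 and 0.673 in naive libraries. Ace, which encodes angiotensin-converting enzyme, stood at 4.73, 6.82 and 5.20 in Hopx-high, 0.620, 0.0607 and 0 in Hopx-low and 0.0765, 1.95 and 1.68 in naive libraries (log2 difference 2.45 ± 0.51, limma adjusted p = 0.0087), and its call against naive cells was lost without naive replicate 1. Il9r (log2 difference 2.00 ± 0.46, limma adjusted p = 0.019), Cxcr3 (log2 difference 1.72 ± 0.41, limma adjusted p = 0.025), Lmna (log2 difference 1.18 ± 0.29, limma adjusted p = 0.029) and Anxa2 (log2 difference 1.57 ± 0.41, limma adjusted p = 0.048) were also higher. Among lower genes were Dapk1 (log2 difference -2.15 ± 0.47, limma adjusted p = 0.013) and Cyp2s1, a cytochrome P450 gene, at 5.96, 6.11 and 5.22 in Hopx-high, 23.5, 27.4 and 28.02 in Hopx-low and 50.8, 59.4 and 58.5 in naive libraries (log2 difference -2.01 ± 0.29, limma adjusted p = 0.00013). Of genes of homing and quiescence, S1pr1 (log2 difference -0.98 ± 0.22, limma adjusted p = 0.013), S1pr4 (log2 difference -0.75 ± 0.17, limma adjusted p = 0.014), Klf2 (log2 difference -1.04 ± 0.20, limma adjusted p = 0.0057), Satb1 (log2 difference -0.82 ± 0.18, limma adjusted p = 0.013) and Smad7 (log2 difference -1.03 ± 0.17, limma adjusted p = 0.00092) were lower in Hopx-high than in Hopx-low cells.

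For 2 features the directions were opposite: higher than in naive cells and lower than in Hopx-low cells. Nr4a1, a nuclear receptor induced through the T cell receptor, stood at 436, 374 and 276 in Hopx-high, 578, 701 and 592 in Hopx-low and 47.9, 57.8 and 45.0 in naive libraries (log2 change 2.81 ± 0.19, limma adjusted p = 1.7e-10 against naive cells, log2 difference -0.80 ± 0.19, limma adjusted p = 0.025 against Hopx-low cells). Nfkbid, a nuclear inhibitor of NF-kappaB, stood at 148, 141 and 132 in Hopx-high, 269, 385 and 327 in Hopx-low and 66.5, 69.6 and 85.9 in naive libraries (log2 change 0.92 ± 0.19, limma adjusted p = 0.0012 against naive cells, log2 difference -1.20 ± 0.19, limma adjusted p = 0.00051 against Hopx-low cells). In both genes the 3 groups were apart, with Hopx-low libraries the highest. Ifngr2 and 4632428N05Rik were lower in Hopx-high cells than in both other groups.

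Markers of other cell types stood at low levels. Identity genes of CD4+ T cells summed to 6936 to 8470.4 in Hopx-high and 7562 to 8900.5 in naive libraries, with 1 of 11 higher (Cd5) and 1 lower (Cd3g, a call lost with upper-quartile scaling and without Hopx-high replicate 1, Hopx-high replicate 3 or naive replicate 2). Monocyte and macrophage markers had 2 of 10 tested genes higher (Lyz2 and Vcam1) and 1 lower (Ms4a6c), and summed to 86.1 to 163 in Hopx-high, 17.7 to 59.0 in Hopx-low and 31.6 to 64.9 in naive libraries. NK and innate lymphoid markers had 1 of 2 tested genes higher, Nkg7 itself, with 3 of 10 at 0 in all 6 libraries and sums of 22.2 to 27.7 in Hopx-high and 2.25 to 8.61 in naive libraries. CD8 T cell markers had 1 of 2 lower, Cd8b1 (-1.69 ± 0.23), and summed to 39.3 to 45.2 in Hopx-high and 126 to 149 in naive libraries, the same direction as Prf1. Cd8a, which stood at lower levels, was not called (limma adjusted p = 0.057). Plasma cell markers had 1 of 4 higher (Derl3), dendritic cell markers 1 of 3 lower (Ccr9, which T cells express too) and platelet markers 1 of 1 lower (Itga2b, a call lost with upper-quartile scaling, with totals without Lars2 and with any Hopx-high or naive library or Hopx-low replicate 2 left out). Of neutrophil, gamma-delta, erythroid and stromal markers 0 were called in either direction. Against Hopx-low cells 3 B cell markers and 1 monocyte marker were higher. Without naive replicate 1, 1 B cell marker and 0 monocyte markers were higher than in naive cells, and with only replicates 1 and 2 of each group 0 of either were called. Also 1 B cell marker was higher without Hopx-high replicate 3 or naive replicate 3 and 5 without naive replicate 2, and 4 monocyte markers were higher without Hopx-low replicate 1. The call of Ms4a6c was lost without Hopx-high replicate 3. The part of these cells in the results on Nkg7, Prf1, Lyz2 and class II genes was not tested.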

How the data were processed

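Total RNA was measured in 9 libraries, 3 each of Hopx-high, Hopx-low and naive CD4+ T cells. RNA extracted with Trizol and a mirVana kit was depleted of ribosomal RNA and sequenced from barcoded Ion Torrent libraries, per the labels' protocols. The submitters' processing notes name mm10 and bedtools. How reads were aligned and assigned to features, with what regard to strand and to multiple matches, is not given in the sources used here. Near-identical copies and genes that overlap on either strand are therefore uncertain. The authors deposited a signal per feature and library. Divided by the smallest value of its column and reduced by 1, 100% of the deposited signal values were whole numbers within 1e-06, which are aligned bases. They were scaled to bases per megabase covered, and a count test was not used because bases are not reads. No depth interval is given for the same reason. Columns without a sample numbered 0.

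Log2(level + 1) was fitted with limma 3.58.1 (R 4.3.3; lmFit, contrasts and eBayes with trend and robust settings) over all 9 libraries, after features below a level of 1 in more than 6 of them were dropped. The fit was tested on simulated data. Groups came from the labels. Within a group, log2 levels correlated at 0.951 to 0.970, and between Hopx-high and naive libraries at 0.856 to 0.895. At most 0.0677% of covered features had equal bases between replicates, and each library was counted once. Tables and figures used Python 3.11.15, pandas 2.3.3, numpy 2.4.6 and matplotlib 3.10.9. Positions and promoter windows are those of RefSeq for GRCm38.p6, which is mm10. Of the tested features 11269 matched that table.

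The comparison and the 58 gene lists were chosen with earlier results of these data known, and the union of division lists and the groups of small nucleolar RNAs were added after values were seen. Named genes are Hopx, 20 rises and 20 falls, the largest among called features without overlap between the groups and of at least median level, up to 8 called features at 0 in either group, the 10 largest rises and falls in level, up to 6 called members of each list by adjusted p, and up to 10 features in each direction that also differ from Hopx-low cells. Genes already prominent in those earlier results are passed over. Alternatives were other scalings, pseudocounts, filters and variance settings, the deposited scale, fewer libraries and a replicate block. Small RNA libraries were not used here.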

Additional observations from a re-analysis of the deposited data

How the results depend on the processing

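None of the 188 named changes turned sign under any alternative, and 147 of the 187 called ones kept their call under all of them. Named genes were mostly picked for their calls in these same libraries, which favours such stability, so it is not separate support. Among all called features, 937 of the 952 higher and 1157 of the 1714 lower ones kept their call in all 3 other scalings. List medians near 0 did turn sign, 11 of them with upper-quartile scaling, such as cytokine receptors (0.07 against -0.12) and actin and myosin genes (0.19 against -0.02), and the balance of rises and falls turned with the scaling. Of 2436 counts of list members, higher or lower, recomputed under 21 alternatives, 2130 stayed within 1.5 times the reported count and 306 moved. The 2666 features called between Hopx-high and naive cells were 1106 with only replicates 1 and 2 of each group, and 1724 to 3145 with 1 library left out. The 242 called between Hopx-high and Hopx-low cells were 143 on the deposited scale, 159 without trend and robust settings, 154 with a pseudocount of 0.1, 69 with only replicates 1 and 2, and 132 to 277 with 1 library left out. Fewer libraries entered the fits that leave some out, and calls against naive cells both fell and rose in them, to 3145 without Hopx-high replicate 2 and 3142 without Hopx-low replicate 1. The cause of these and the other shifts was not tested. Replicate numbers share the sex pattern of Xist and Ddx3y, replicate 3 standing apart in each group, but do not otherwise pair the samples: deviations from group means correlated at -0.13 to 0.11 for the same number and at -0.15 to 0.21 for different numbers. With the number as a replicate block 2677 and 255 features were called. Depth limits low genes: in Hopx-high replicate 3 a level of 1 stood for 0.975 reads, so levels near 1 rest on single reads, and a gene listed at 0 there is not shown to be absent.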

Other observations

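Small nucleolar RNAs, which guide chemical changes of ribosomal RNA, differed by class. They lie in introns of other genes, so their reads cannot be told apart from those of unspliced host transcripts, and the features were grouped by the start of their names after values were seen. Of 32 tested Snora features, the box H/ACA class that guides pseudouridylation, 16 were lower in Hopx-high than in naive cells and 1 was higher, against 15.1% and 8.41% of all tested features. Their summed level was 5398, 2508 and 3904 in Hopx-high, 6764, 4145 and 4220.3 in Hopx-low and 13567, 11671 and 6949 in naive libraries. Hopx-high and naive libraries did not overlap in that sum, and naive replicate 3 was the lowest of its group. Snora81 stood at 1147, 424 and 717 in Hopx-high, 1698, 887 and 925 in Hopx-low and 4353, 4231 and 2413 in naive libraries (log2 change -2.33 ± 0.42, limma adjusted p = 0.0057). Snora30 stood at 36.3, 8.02 and 12.98 in Hopx-high, 104, 27.9 and 35.5 in Hopx-low and 196, 209 and 95.6 in naive libraries (log2 change -3.24 ± 0.64, limma adjusted p = 0.007). With upper-quartile scaling 10 were lower and 2 higher, and without Hopx-high replicate 3 there were 13 lower and 0 higher. Without naive replicate 1 there were 10 lower.

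Of 60 tested Snord features, the box C/D class that guides methylation, 10 were higher (16.7%) and 6 lower (10%), against 8.41% and 15.1% of all tested features. Their summed level overlapped, at 14624, 11871 and 15430.4 in Hopx-high and 18998, 18383 and 14017 in naive libraries. Snord22, the feature of this class with the largest fall in level, stood at 2796, 1789 and 2142 in Hopx-high and 4468, 4495 and 2875 in naive libraries (log2 change -0.81 ± 0.20, limma adjusted p = 0.0061), and was not called with upper-quartile scaling. The 6 lower features were 2 with upper-quartile scaling and 3 without naive replicate 1. The 10 higher features were 2 without Hopx-high replicate 3 and 4 with only replicates 1 and 2.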
